A study of Mus musculus with 8 samples.

Results

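Long early replicating domains are stretches of the genome in which the replication timing score stays high over 2 Mb or more. They were taken from replication timing profiles of E14Tg2a mouse embryonic stem cells in which the endogenous CTCF protein carries an auxin-inducible degron. The windows of the 19 autosomes were averaged in bins of 50 kb, bins with at least 3 windows were kept, and successive kept bins whose mean over all 4 profiles exceeded 0.5 were joined into runs that bridge no gap above 200 kb. The rule gave 107 domains that hold 8032 bins, which is 19.6% of the 41018 autosomal bins kept and 48.8% of the 16448 bins above 0.5. The level of the score therefore chose the members and is given below as a description. All 4 profiles entered the mean with equal weight, and the difference between auxin and control profiles was not itself a criterion. The choice was still not independent of that difference: a bin with low control profiles could enter through high auxin profiles, or the reverse. Over member bins the SD of the replicate difference was also larger without auxin (0.45) than with it (0.35).

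The 8 libraries fall into 2 groups. In the auxin group the degron was triggered for 2 days with indole-3-acetic acid (500 µM in the medium), while the no-auxin group carried the same degron and was left without it. Each group has 2 replicates, labelled with BrdU for 2 hours, and each replicate joins its early and late S-phase libraries into 1 timing profile. No degron-free cells given auxin are among the samples, so effects of auxin itself and of CTCF loss cannot be told apart. The labels describe the E14Tg2a line and subclones of it, and name no separate cultures behind the replicates, so a p-value here reflects the spread among these profiles, which may be technical. The files hold timing scores and no expression values, so the stem cell label could not be checked against markers and the loss of CTCF could not be measured. The tables hold no read counts and the depth of each profile is unknown. Higher scores mean earlier replication. The sources used here do not give the log base of the score, whose SD over the genome is 2.1.

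In mammalian cells, replication origins fire in clusters, and megabase-sized domains replicate at a characteristic time in S phase. Early domains are typically gene-rich, open chromatin that lies in the nuclear interior, and they are joined to late domains by timing transition regions. CTCF is a zinc finger protein that, together with cohesin, anchors chromatin loops and marks many borders of topologically associating domains.

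Promoters of 3 genes in long early domains, and of 1 gene in a late run of 2 Mb or more for contrast, show the range of base composition described further on. Each is the first 250 bases of the RefSeq promoter entry on GRCm38.p6, which ends at a transcript start, written on the gene's own strand with CpG dinucleotides in capitals. Polr2e lies on the minus strand at chr10:80039660-80039909, in the domain with the highest mean score, and its promoter holds 27 CpG. Srsf4 lies on the plus strand at chr4:131873387-131873636, near the left edge of the longest domain, and its promoter holds 37 CpG (the start this entry uses lies 107 bases from the start in the gene table). Fbxw19 lies on the minus strand at chr9:109495855-109496104, in a run of bins that moved earlier with auxin, and its promoter holds 1 CpG (9 bases between those starts). The olfactory receptor gene Olfr1000 lies on the minus strand at chr2:85608909-85609158, in a late run, and its promoter holds 0 CpG.
Polr2e: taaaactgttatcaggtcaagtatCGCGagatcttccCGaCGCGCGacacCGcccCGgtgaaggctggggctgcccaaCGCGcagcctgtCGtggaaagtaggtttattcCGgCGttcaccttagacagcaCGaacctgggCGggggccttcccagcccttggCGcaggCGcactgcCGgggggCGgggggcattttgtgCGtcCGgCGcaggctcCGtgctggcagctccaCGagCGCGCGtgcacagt
Srsf4: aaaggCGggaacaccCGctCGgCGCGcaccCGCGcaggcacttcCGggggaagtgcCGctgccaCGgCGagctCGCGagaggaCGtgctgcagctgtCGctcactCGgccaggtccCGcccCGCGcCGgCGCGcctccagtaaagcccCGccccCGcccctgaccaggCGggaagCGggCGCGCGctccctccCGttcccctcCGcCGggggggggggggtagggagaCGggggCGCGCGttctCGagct
Fbxw19: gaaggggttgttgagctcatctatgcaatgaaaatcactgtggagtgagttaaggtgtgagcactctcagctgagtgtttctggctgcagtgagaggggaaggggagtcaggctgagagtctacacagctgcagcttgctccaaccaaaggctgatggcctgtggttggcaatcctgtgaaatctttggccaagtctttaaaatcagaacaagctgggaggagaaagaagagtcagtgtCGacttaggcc
Olfr1000: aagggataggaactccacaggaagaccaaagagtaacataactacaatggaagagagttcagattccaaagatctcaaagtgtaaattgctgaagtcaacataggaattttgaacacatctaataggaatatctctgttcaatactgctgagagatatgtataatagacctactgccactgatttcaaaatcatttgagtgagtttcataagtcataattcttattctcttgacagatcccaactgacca

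The 107 domains covered 404 Mb. Their median length was 3250 kb (interquartile range 2400 to 4500 kb), and 19 were 5 Mb or longer. They were spread unevenly over the chromosomes. On chromosome 11, 12 domains held 47.1% of the kept bins, whereas a single domain held 4.20% on chromosome 18, and 2 domains held 6.09% on chromosome 3. The longest domains were 2 of 10850 kb each. The domain on chromosome 4 (131600001 to 142450000) held 200 gene starts, among them Lin28a, which encodes an RNA-binding protein of pluripotent cells, and the splicing factor genes Srsf4 and Srsf10. The domain on chromosome 15 (75500001 to 86350000) held 257 gene starts, among them the meiotic cohesin gene Smc1b and the zinc finger genes Zfp251 and Zfp647. The domain mean score ranged from 1.43 to 3.34, with a median of 2.62. The highest mean belonged to the chromosome 10 domain that contains Med16, a subunit of the Mediator coactivator, and Polr2e, a subunit of RNA polymerase II.

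The members were mostly far above the threshold. The median bin scored 2.84, 76.1% of the bins scored above 2, and 5.15% lay between 0.5 and 1. At the threshold itself, the last bin inside an edge had a median score of 0.74 and a lowest of 0.50, and the adjoining bin outside had a median of 0.32 and a highest of 0.50. On the length side, the 55 early runs of 1500 to 1950 kb that just missed the rule had a mean score of 2.04, and the 29 domains of 2000 to 2450 kb that just met it had a mean score of 2.46. Longer domains tended to score higher, with Pearson's r = 0.35 and Spearman's rho = 0.37 over the 107 domains, which differ in length and so in how much of them lies near an edge.

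Genes were concentrated in the domains. Of 19534 protein-coding genes placed in autosomal bins, 8201 (42.0%) started in a long early domain. The density was 20.4 gene starts per Mb in long early domains, against 13.1 in early runs under 2 Mb, 4.57 in late runs of 2 Mb or more and 6.87 over all other autosomal bins. Even so, 41.5% of the member bins held no gene start. Domains differed among themselves from 5.33 to 55.7 gene starts per Mb, and denser domains scored higher (Pearson's r = 0.65 and Spearman's rho = 0.71 over 107 domains). Genes in the domains had a median length of 15.2 kb, against 22.1 kb in all other bins, 23.8 kb in early runs under 2 Mb and 12.5 kb in late runs of 2 Mb or more. Only 6.10% of the genes in the domains were over 100 kb long, against 15.4% of the genes elsewhere. Of other annotated classes, 43.8% of 1095 miRNA genes started in the domains, and 29.0% of 11752 lncRNA genes did.

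Their promoters resembled those of shorter early runs and differed from those of late runs. Over the 300 bases around the start, the 6679 promoters in long early domains had a median G+C content of 59.3% and a median of 18 CpG, against 59.3% and 18 CpG for 4273 promoters in early runs under 2 Mb and 46.7% and 4 CpG for 1003 promoters in late runs of 2 Mb or more. A promoter was counted as CpG-rich with a G+C content of at least 55% and an observed over expected CpG ratio of at least 0.75. By that count 37.2% were CpG-rich in long early domains, 40.2% in early runs under 2 Mb and 16.8% in long late runs, against 32.7% of all placed promoters. The letters TATAAA, searched on both strands, occurred in 8.20% of promoters in long early domains, 9.78% in early runs under 2 Mb and 25.8% in long late runs, against 12.6% of all. The letters CCAAT, also searched on both strands, occurred in 38.4%, 38.4% and 39.2% of the promoters of those same 3 classes, against 38.7% of all. Of the promoters printed above, Polr2e and Srsf4 illustrate the CpG-rich kind. The Fbxw19 promoter is almost without CpG, but its bin met the score threshold for members only through auxin. That bin scored 1.23 and 1.10 in auxin, against 0.24 and 0.07 without auxin.

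The gene lists differed widely in the share of their members that lay in the domains. Among lists with more than 1 placed gene, the highest shares were those of 25 of 39 proteasome subunit genes (64.1%), 14 of 22 genes of splicing Sm and SR proteins (63.6%), 45 of 73 cytosolic ribosomal protein genes (61.6%) and 17 of 28 Mediator genes (60.7%), beside 42.0% of all genes. Genes of CTCF and cohesin (9 of 17), zinc finger proteins of the Zfp family (185 of 369), glutamate receptors (11 of 23), respiratory complex I (22 of 47), RNA polymerase II (6 of 13), core pluripotency (11 of 25) and replication origins and timing (11 of 27) lay between 40.7% and 52.9%. The following lists lay below the share of all genes. Of 39 Hox genes 10 lay in a domain, all of them Hoxb genes on chromosome 11. So did 26 of 102 genes of keratins and keratin-associated proteins, 10 of 63 replication-dependent histone genes and 81 of 954 olfactory receptor genes. The counts were 11 of 226 for vomeronasal receptor genes and 0 of 57 for clustered protocadherin genes. The search for aminoacyl-tRNA synthetase genes by symbol matched 1 gene, Mars1, which lay in a domain. Clustered genes share their bins, so these counts are not independent, and no test was made of them.

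**Figure D1:**
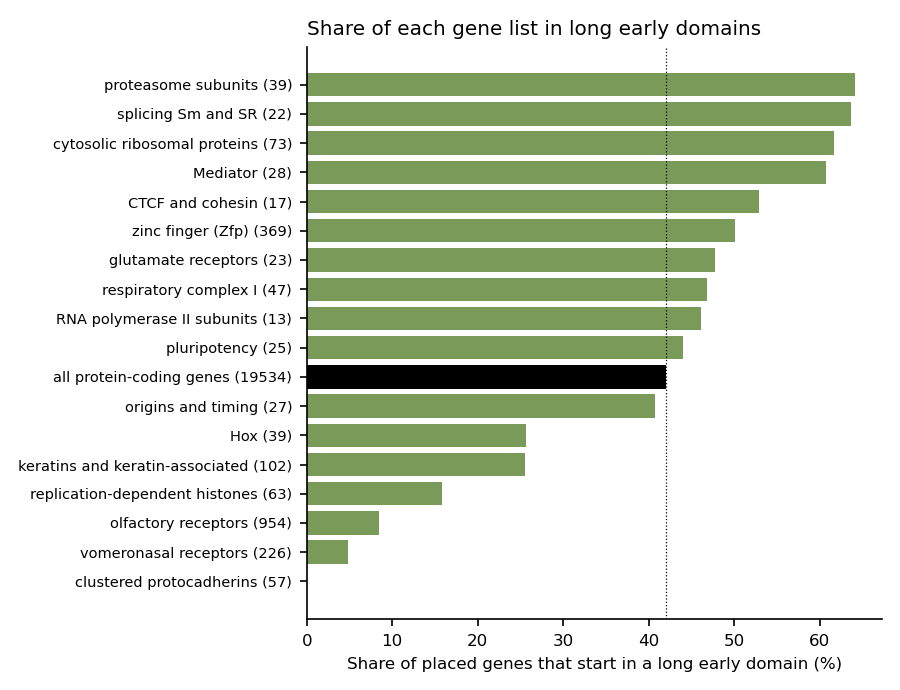
Share of the placed genes of each list that start in a long early domain, in percent, with the number of placed genes in parentheses; the black bar and dotted line give all 19534 placed protein-coding genes. Proteasome, splicing, ribosomal and Mediator genes lie above 60%, and olfactory, vomeronasal and protocadherin genes below 10%.

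The comparison of auxin with no auxin asks whether these domains replicate at another time once CTCF is depleted. As a class they scored higher in auxin by a small margin. The mean over all member bins was 2.67 and 2.67 in the auxin profiles, against 2.58 and 2.57 in the no-auxin profiles. The auxin profiles both lay above the no-auxin profiles, with a difference of 0.09 (2.67 ± 0.003 against 2.57 ± 0.005; SD, n = 2 each; exact permutation test over the 4 profiles, two-sided, p = 0.333, the smallest this design allows). The class medians differed by 0.07, with 2.83 and 2.83 in auxin against 2.76 and 2.76 without it. The difference was above 0 in 60.3% of member bins, compared with 50.4% of all autosomal bins kept. The columns were quantile normalized, so a shift in 1 class implies an opposite shift elsewhere, and only differences between classes can be read.

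In shorter early runs the difference had the opposite sign. Early runs under 2 Mb averaged 1.69 and 1.69 in auxin, against 1.77 and 1.78 without auxin, a difference of -0.08. The gap between long early domains and early runs under 2 Mb was thus 0.97 and 0.98 in auxin, against 0.81 and 0.79 without auxin (difference 0.17; exact permutation test, two-sided, p = 0.333, again the smallest possible), and the groups did not overlap. Over all 744 early runs the difference followed the length of the run: it was -0.18 in runs under 500 kb, -0.13 in runs of 500 kb to under 1000 kb, -0.06 up to 1500 kb, 0.03 up to 2000 kb, 0.07 in domains under 3000 kb, 0.09 in domains up to 5000 kb and 0.12 in the 19 domains of 5000 kb or more. Within the domains themselves, length and difference were hardly related (Pearson's r = 0.07, Spearman's rho = 0.06 over 107 domains). Shorter runs also have more of their bins near an edge. In long domains the difference was 0.03 within 250 kb of an edge and -0.01 from 250 to 500 kb. Deeper inside it was 0.11 from 500 to 1000 kb, 0.13 from 1000 to 2000 kb and 0.14 beyond. Length and distance from an edge were not separated here.

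The contrast with shorter runs was present at matched levels of the score, with distance from an edge not matched. Member bins that scored between 0.5 and 1 averaged 0.87 and 0.85 in auxin, against 0.73 and 0.63 without auxin. Bins of early runs under 2 Mb in the same range averaged 0.72 and 0.72 in auxin, against 0.78 and 0.78 without auxin. Between 1.5 and 2, the difference was 0.16 in member bins and -0.10 in shorter runs, and between 2.5 and 3 it was 0.05 in member bins and -0.11 in shorter runs. The difference in long early domains was thus larger in their lower-scoring bins than in their higher-scoring ones, and shorter runs gave negative values in all 7 ranges of level.

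**Figure D2:**
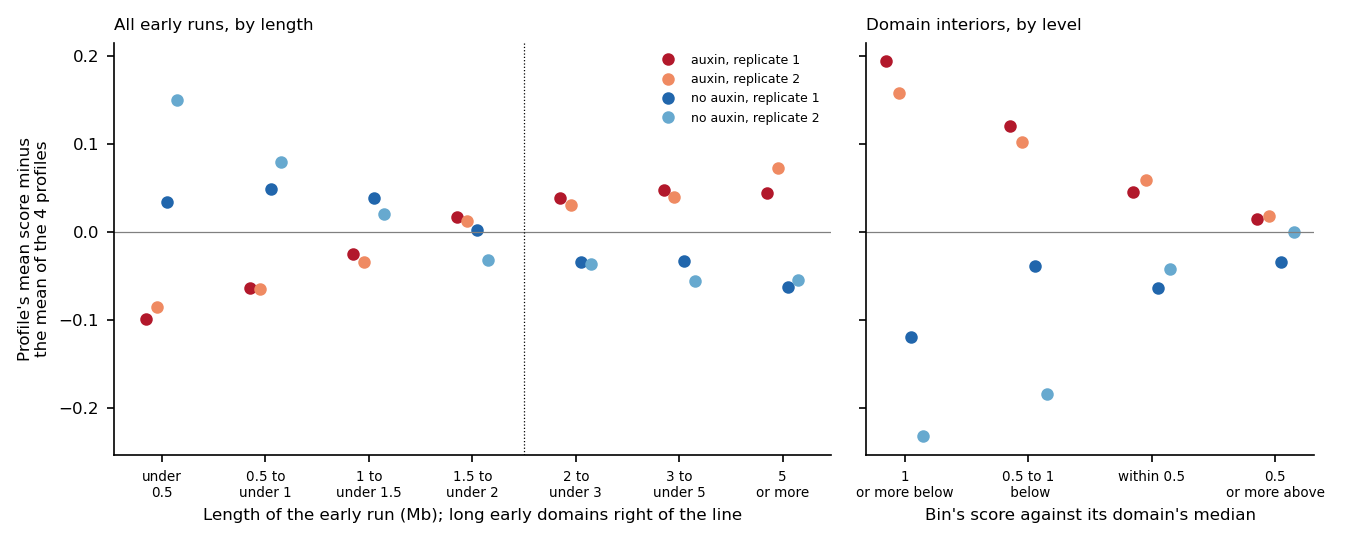
Each point is the mean score of 1 profile over the bins of a class minus the mean of the 4 profiles for that class; in the left panel classes are the lengths of all early runs, and in the right panel the level of interior bins of long early domains against the median of their domain. Auxin points lie below the no-auxin points in runs under 1.5 Mb and above them in all 3 classes of long early domains, and the groups are farthest apart in interior bins that score 1 or more below their domain's median.

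Inside the domains the difference was largest in local dips. Bins at least 500 kb from an edge were ranked, by their mean over the 4 profiles, against the median of their own domain. The 481 bins that lay 1 or more below it, found in 63 domains, averaged 1.58 and 1.54 in auxin, against 1.26 and 1.15 without auxin, a difference of 0.35. The 571 bins that lay 0.5 to 1 below differed by 0.22, the 3800 bins within 0.5 of the median by 0.11, and the 1051 bins 0.5 or more above it by 0.03. The groups did not overlap in any of these 4 classes, and the difference was above 0 in 86.7% of the lowest bins and in 54.2% of the highest (exact permutation test of each class, two-sided, p = 0.333, the smallest possible). Gene starts were sparser where the score dipped, with 12.6 per Mb in the lowest class and 25.6 per Mb in the highest.

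Domain interiors varied less in auxin. Over domains, the median SD of the interior bins was 0.57 and 0.58 in auxin, against 0.64 and 0.69 without auxin, and the domain's SD was lower in auxin in all but 15 of 107 domains. The lowest interior bin of each domain averaged 1.66 and 1.64 in auxin, against 1.42 and 1.36 without auxin. The highest interior bin averaged 3.59 and 3.65 in auxin, against 3.64 and 3.62 without auxin, so the groups overlapped at the peaks. The median absolute step between neighbouring member bins was 0.23 and 0.22 in auxin, against 0.30 and 0.24 without auxin. Early runs under 2 Mb had similar steps, 0.24 and 0.23 in auxin, against 0.29 and 0.27 without auxin, a difference of -0.04 beside -0.05 in the long domains. The no-auxin replicates also differed more from each other, bin by bin, than the auxin replicates did (SD of the replicate difference 0.35 in auxin and 0.45 without auxin over member bins), and the part of this spread in the smaller steps and SDs was not tested. Chosen on 1 replicate of each group and measured in the other, the lowest class of interior bins still differed by 0.39 and 0.31.

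The 5 deepest interior dips show the range. The deepest, 2.65 below its domain's median, lay on chromosome 5 at 119850001 to 120100000 over Tbx5, which encodes a transcription factor of heart and forelimb development. The Tbx5 stretch scored 1.08 and 1.05 in auxin, against 0.87 and 0.73 without auxin. A dip of 2.50 on chromosome 9 (109350001 to 109550000) covered Fbxw23, Fbxw22 and Fbxw19, members of a cluster of F-box and WD-40 genes. It scored 1.27 and 1.13 in auxin, against 0.15 and 0.19 without auxin, so that only the control profiles lay below the threshold of 0.5. On chromosome 5 a dip of 2.39 (138400001 to 138650000) covered the zinc finger genes Zfp157 and Zfp68 and scored 1.20 and 1.20 in auxin, against 0.51 and 0.46 without auxin. On chromosome 8 a dip of 2.42 over Gm7697 and the zinc finger gene Zfp868 (69500001 to 69650000) scored 1.94 and 1.51 in auxin, against 1.41 and 1.03 without auxin. The fifth, 2.36 deep over the neuronal splicing factor gene Rbfox3 on chromosome 11 (118650001 to 118900000), scored 1.15 and 1.21 in auxin, against 1.16 and 0.80 without auxin, and its groups overlapped. Thus 4 of these 5 stretches scored higher in both auxin profiles than in either control profile. Over the deepest interior stretch of each of the 107 domains, that held for 66 (61.7%), and 11 (10.3%) scored lower in both auxin profiles. The shares were 26.4% and 26.1% over all single bins, and 29.8% and 34.5% over all runs of 10 or more bins. The stretches average up to 5 bins, so neither share is of like units, and none was computed over like stretches.

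At the domain edges the fall of the score was smaller in auxin, with the difference on the outer side. Of 214 edges, 14 lay at a gap or a chromosome end, and the remaining 200 were measured. The median fall from the 5 bins inside an edge to the 5 bins outside was 1.78 and 1.86 in auxin, against 2.04 and 2.16 without auxin (difference -0.28; exact permutation test, two-sided, p = 0.333, the smallest possible). The bins inside did not separate the groups, with 1.52 and 1.58 in auxin, against 1.59 and 1.53 without auxin. The bins outside averaged -0.26 and -0.29 at the median edge in auxin, against -0.49 and -0.62 without auxin. By edge, the fall was smaller in both auxin profiles than in both control profiles at 132 edges (66%, against 61.9% of 911 edges of all early runs of 500 kb or more) and larger at 18 (9%, against 10.8%). Outside the edge, both auxin profiles were above both control profiles at 122 edges (61%, against 54% of all these edges) and below them at 20 (10%, against 20.2%).

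A smaller fall in auxin was also measured at the edges of shorter early runs. At 711 edges of early runs of 500 kb to under 2 Mb the median fall was 1.75 and 1.74 in auxin, against 1.95 and 2.08 without auxin, a difference of -0.27 beside the -0.28 of the long domains. The 5 bins inside those shorter runs scored 1.38 and 1.39 in auxin, against 1.49 and 1.50 without auxin, a difference of -0.12 beside -0.01 in long domains. The bins outside the shorter runs differed by 0.16, beside 0.29 outside the long domains. The differences between the 2 kinds of edge were not tested.

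Averaged over edges, the difference changed sign along the edge. It was 0.14 at 975 kb inside the edge, -0.07 at 225 kb inside, 0.31 at 125 kb outside and 0.06 at 975 kb outside. The place where a profile crosses 0.5 could be found at 187 edges and lay at a median of 9.41 and 7.48 kb outward in auxin, against -2.29 and -10.4 kb without auxin. The shift of 14.8 kb is smaller than 1 bin of 50 kb, and the interquartile range over edges ran from -16.1 to 47.9 kb. Of the 183 edges with a full 1 Mb of kept bins outside, 144 reached the late range below -0.5 within that distance, and 56 of the edges had a bin back above 0.5 within 500 kb.

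**Figure D3:**
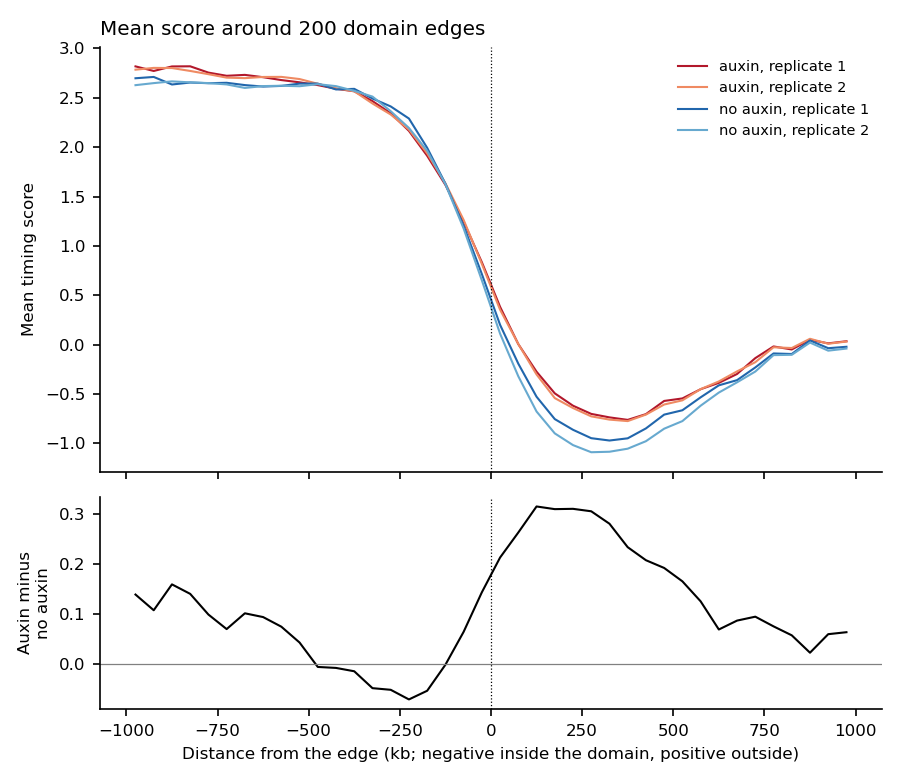
Mean timing score of each profile (upper panel) and mean of the auxin profiles minus mean of the no-auxin profiles (lower panel) against the distance from 200 edges of long early domains, in kb, negative inside. Between 500 and 100 kb inside the edge the difference stays below 0 and no lower than -0.07, with both auxin profiles below both others from 375 to 175 kb inside, and outside the edge it reaches 0.31.

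Tested domain by domain, few of the differences stood out. Domain means were fitted with limma together with all 1251 autosomal runs of 10 or more bins, of which 28.9% passed an adjusted p of 0.05 in either direction and 12.1% in the earlier direction. Of the 107 domains 11 passed (10.3%), 10 of them earlier (9.35%) and 1 later, so in this fit the share of called domains was below that of all runs. The fit shares variance over runs of all lengths, and with only runs of 2 Mb or more in it 27 domains were called. The profiles separated more often: both auxin profiles lay above both control profiles in 58 domains (54.2%, against 29.8% of all runs) and below them in 14 (13.1%, against 34.5% of all runs). The difference was above 0 in 83 domains, with a median of 0.10 and a range of -0.40 to 0.53. Without auxin replicate 1 the fit called 2 domains, without auxin replicate 2 it called 3, all of them among the 11, and without no-auxin replicate 2 it called 5, of which 4 were among the 11. A fit with a trended, robust variance called 30.

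The largest difference was on chromosome 11 at 29200001 to 31200000, a domain with 17 gene starts that include Sptbn1, which encodes a spectrin of the membrane skeleton, Eml6, a gene of the microtubule-associated EML family, and Rps27a, which encodes a ubiquitin fused to a ribosomal protein. Its mean was 2.16 and 2.08 in auxin, against 1.57 and 1.62 without auxin. It moved earlier by 0.53 ± 0.09 (SE; limma, adjusted p = 0.000582), and 97.5% of its bins had a difference above 0. A domain on chromosome 6 (37000001 to 40000000) with the diacylglycerol kinase gene Dgki, the complex I gene Ndufb2 and Tmem178b averaged 2.83 and 2.75 in auxin, against 2.42 and 2.33 without auxin, and moved earlier by 0.41 ± 0.09 (SE; limma, adjusted p = 0.00323). Groups did not overlap in either domain.

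The next largest gains were on chromosome 8 (77850001 to 79900000), over Zfp827, the transporter gene Slc10a7 and Ttc29, and on chromosome 2 (126450001 to 129600000), over Zfp661, the acyl-CoA oxidase-like gene Acoxl and the phospholipid-flippase gene Atp8b4. The Zfp827 domain averaged 2.09 and 2.02 in auxin, against 1.69 and 1.63 without auxin (difference 0.39; limma, adjusted p = 0.00425). The Acoxl domain averaged 2.34 and 2.30 in auxin, against 2.05 and 1.97 without auxin (difference 0.31; limma, adjusted p = 0.0167). Genes within a domain need not follow its mean: the start bin of Atp8b4, at the left edge of the Acoxl domain, scored 1.37 and 1.38 in auxin, against 2.14 and 2.10 without auxin.

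The domain that moved later was on chromosome 17 (86600001 to 88700000). It holds Epas1, which encodes a hypoxia-inducible transcription factor, Ttc7 and the F-box gene Fbxo11. Its mean was 1.81 and 1.74 in auxin, against 2.25 and 2.10 without auxin, and it fell by 0.40 on the score scale (limma, adjusted p = 0.00483). The start bin of Epas1 scored 0.59 and 0.48 in auxin, against 1.13 and 1.22 without auxin, so that in auxin it lay near the threshold of 0.5.

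**Figure D4:**
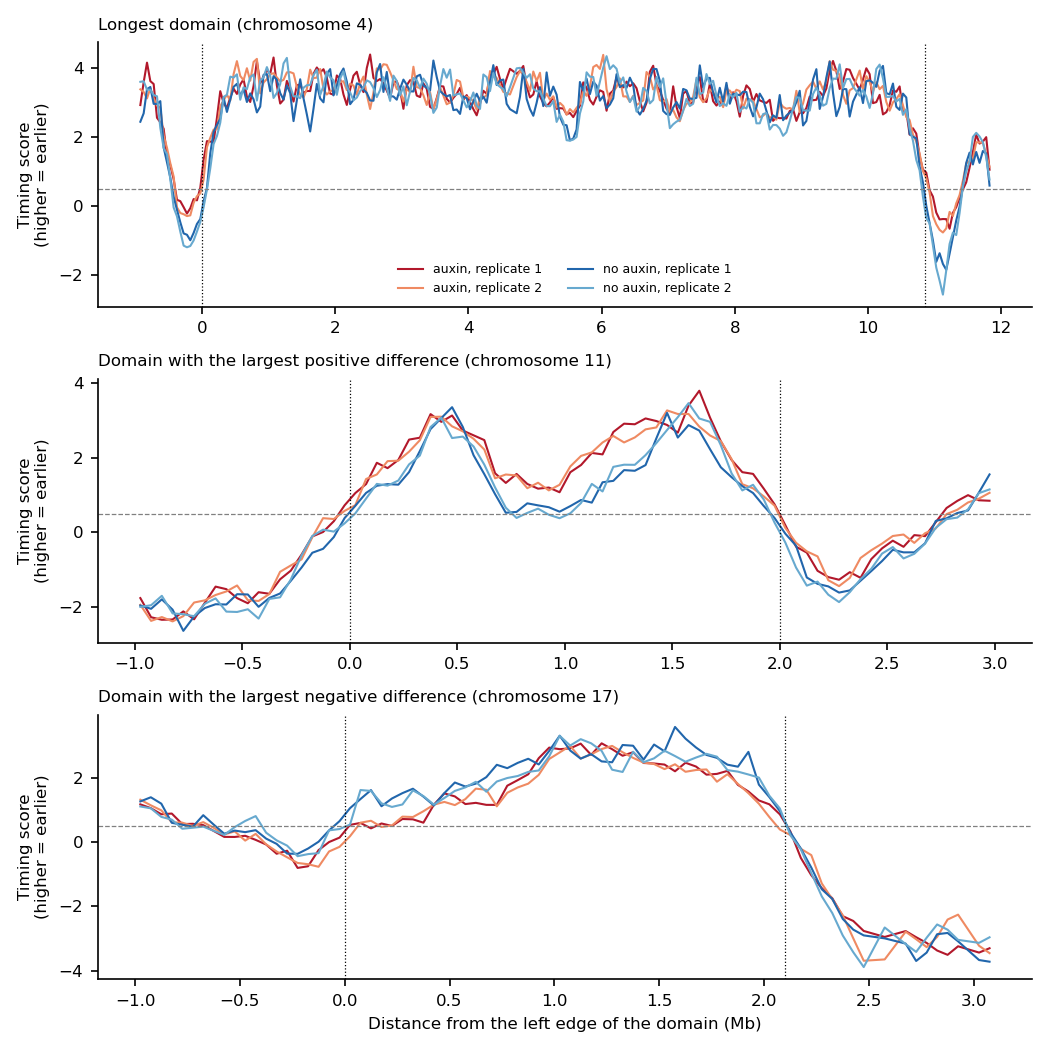
Timing score of the 4 profiles in 50-kb bins along 3 domains and 1 Mb on each side, against the distance from the left edge in Mb; dotted lines mark the edges and the dashed line the threshold of 0.5. In the chromosome 4 domain the profiles interleave at the high level and separate in the flanking late dips, in the chromosome 11 domain auxin lies above control over the central dip, and in the chromosome 17 domain it lies below over much of the length.

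**Figure D5:**
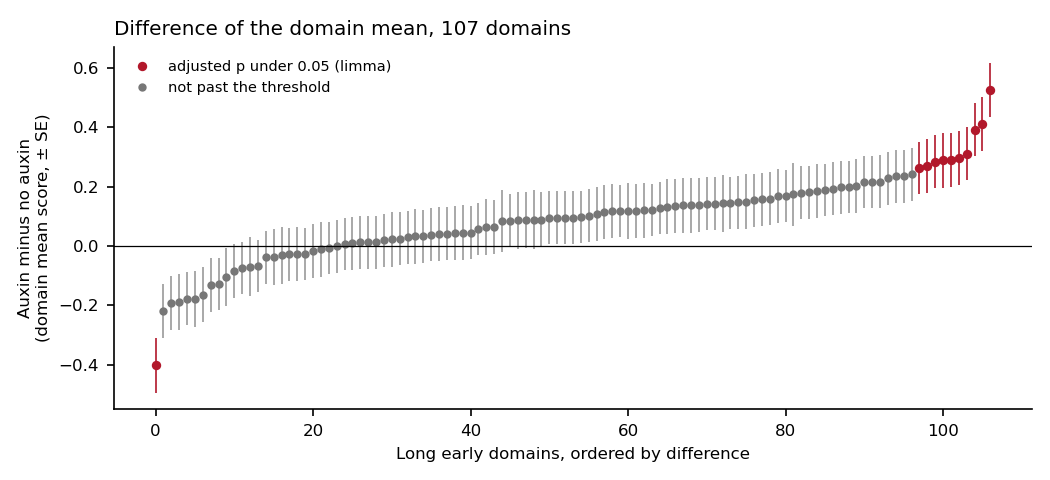
Difference of the domain mean score (auxin minus no auxin, score units) for the 107 long early domains in rising order, with the standard error of the limma fit; red points passed an adjusted p of 0.05. The differences run from -0.40 to 0.53, with 10 called domains at the upper end and 1 at the lower.

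The longest domains were not among those called. The chromosome 4 domain averaged 3.23 and 3.27 in auxin, against 3.14 and 3.17 without auxin, a difference of 0.10 (SE 0.09; limma, adjusted p = 0.458). The chromosome 15 domain averaged 2.88 and 2.97 in auxin, against 2.75 and 2.81 without auxin, a difference of 0.14 (SE 0.09; limma, adjusted p = 0.259). Of the 8 longest, 7 had both auxin profiles above both control profiles, as had 54.2% of the 107 domains and 29.8% of all runs of 10 or more bins. The exception was the 7550-kb domain on chromosome 11 (114400001 to 121950000), which holds Rpl38, Grin2c and Zfp750, with 2.96 and 3.08 in auxin, against 2.98 and 2.98 without auxin.

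Among single bins, 45 member bins moved earlier (0.560%) and 11 later (0.137%) in the fit over all 42710 bins (limma, adjusted p under 0.05). Over all bins 0.637% were called earlier and 1.02% later, so the share of earlier calls was close to the background and that of later calls below it. Early runs under 2 Mb had 56 bins called earlier and 110 later. Both auxin profiles exceeded both control profiles in 31.1% of member bins and lay below both in 16.7%, against 26.4% and 26.1% of all bins. The 56 called bins lay in 28 domains, and 79 domains had none. Without a minimum of 3 windows no member bin was called, and with any single profile left out none of the 56 was called. At an unadjusted p under 0.05 the limma fit held 1396 member bins (17.4%), against 21.4% of all autosomal bins kept.

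The called bins formed 33 runs that moved earlier and 8 that moved later. The longest was a 200-kb run on chromosome 2 (128400001 to 128600000) over Spdye4c, in the same domain as Acoxl, which scored 2.24 and 2.03 in auxin, against 1.02 and 1.01 without auxin (limma, adjusted p of its bins 0.0417 to 0.0472). A 150-kb run on chromosome 9 (109350001 to 109500000) over Fbxw22, Fbxw19 and Fbxw16 scored 1.22 and 1.11 in auxin, against 0.04 and 0.11 without auxin. The promoter of Fbxw19 printed above, with its single CpG, belongs to this run, whose scores without auxin lay below the threshold for members. A 150-kb run on chromosome 11 (30200001 to 30350000) over Sptbn1 scored 1.85 and 1.98 in auxin, against 0.79 and 0.87 without auxin.

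Bins that moved earlier were mostly low-scoring members. Of the 45, 6 had a mean over the profiles of 0.5 to 1, 18 of 1 to 1.5 and 11 of 1.5 to 2, ranges that hold 5.15%, 8.35% and 10.4% of the member bins. That mean also chose the members and includes the auxin profiles, so level and difference are not independent here. Some called bins met the rule only through auxin: the bin on chromosome 2 at 154050001 scored 1.26 and 1.67 in auxin, against 0.06 and 0.06 without auxin. Other runs of 100 kb lay over Enthd1 on chromosome 15 (80400001 to 80500000), with 2.35 and 2.67 in auxin, against 1.42 and 1.35 without auxin, and in stretches that overlap no protein-coding gene on chromosome 8 (79800001 to 79900000) and chromosome 12 (110150001 to 110250000). The start bin of Snrpb on chromosome 2 (130150001 to 130200000), which encodes a core protein of the spliceosomal snRNPs, was also called, with 2.34 and 2.17 in auxin, against 1.03 and 1.06 without auxin (difference 1.21; limma, adjusted p = 0.041). Of the 45 bins that moved earlier, 11 lay within 500 kb of an edge, as did 26.5% of all member bins. Single bins differed by 0.96 to 1.41 in the earlier direction.

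Later runs were fewer. The longest, 150 kb on chromosome 2 (158300001 to 158450000), covered Ralgapb, a regulator of Ral GTPases, and Lbp, the lipopolysaccharide-binding protein gene, and scored 1.70 and 1.69 in auxin, against 2.91 and 2.83 without auxin (limma, adjusted p of its bins 0.0417 to 0.0421). A 100-kb run over Sobp and the coenzyme Q synthesis gene Pdss2 on chromosome 10 (43150001 to 43250000) scored 0.92 and 0.84 in auxin, against 1.87 and 1.83 without auxin. Single bins that moved later held Atp23 on chromosome 10, the inositol kinase gene Ipmk on the same chromosome, and the heat shock gene Hspa1l with Lsm2 on chromosome 17. The Hspa1l bin scored 3.15 and 3.22 in auxin, against 4.29 and 4.33 without auxin. A further later bin (86700001 to 86750000) lay just left of Epas1, in the chromosome 17 domain that moved later as a whole. Of the 11 bins that moved later, 8 lay within 500 kb of an edge.

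By chromosome, the difference of the member means was above 0 on all but chromosome 19. It was 0.19 on chromosome 1, with 2.53 and 2.48 in auxin, against 2.33 and 2.30 without auxin. On chromosome 11, which holds the most member bins, the means were 2.84 and 2.87 in auxin, against 2.70 and 2.74 without auxin. On chromosome 19 they were 2.74 and 2.73 in auxin, against 2.75 and 2.76 without auxin, a difference of -0.02 with no overlap between the groups. The difference was only 0.006 on chromosome 10, and on chromosomes 3 and 18 the groups overlapped.

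The gene lists were read through the bin that holds each gene's start. Of the 8201 genes that start in the domains, 17 started in a bin called earlier (0.207%, against 0.394% of all placed genes) and 10 in a bin called later (0.122%, against 0.906%), and their median difference was 0.09 with 4842 above 0. Among the listed families, Snrpb was the single gene that started in a called bin. Of 185 zinc finger genes 131 had a difference above 0 (median 0.13), as had 30 of 45 ribosomal protein genes (median 0.15), 15 of 25 proteasome genes (median 0.14), 12 of 22 complex I genes (median 0.08), 9 of 14 splicing genes (median 0.06), 8 of 17 Mediator genes (median -0.02), 7 of 11 pluripotency genes (median 0.20), 6 of 11 origin and timing genes (median 0.05), 4 of 9 CTCF and cohesin genes (median -0.02), 7 of 11 glutamate receptor genes (median 0.24) and 4 of 6 RNA polymerase II genes (median 0.17). The 10 Hoxb genes in a domain were all above 0 (median 0.51), as were the 10 histone genes on chromosome 3 (median 0.42), and each of these clusters spans few bins. Of 81 olfactory receptor genes in the domains 52 were above 0 (median 0.21), and of 11 vomeronasal receptor genes 7 (median 0.07). Of 26 genes of keratins and keratin-associated proteins 15 were above 0 (median 0.00).

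Genes with the largest differences of their lists had values of either sign. The start bin of Rpl23a, a ribosomal protein gene on chromosome 11, scored 4.26 and 3.95 in auxin, against 2.93 and 3.36 without auxin. The start bin of Psmd5, a proteasome chaperone gene, scored 3.18 and 3.09 in auxin, against 4.14 and 3.55 without auxin. Med25 scored 3.34 and 3.35 in auxin, against 4.09 and 4.30 without auxin, and Med6 scored 2.66 and 2.54 in auxin, against 1.82 and 1.71 without auxin, so that both signs occurred among subunits of Mediator. Smc1b, a meiotic cohesin gene, scored 2.62 and 2.83 in auxin, against 3.39 and 3.81 without auxin, and the germline cohesin gene Rad21l scored 2.19 and 2.19 in auxin, against 1.55 and 1.53 without auxin. None of these bins passed the adjusted threshold. The groups did not overlap in any of them, but these genes were picked for the largest differences of their lists. Over all bins, both auxin profiles lay above both control profiles in 26.4% and below both in 26.1%.

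Genes of pluripotency also had values of either sign, but no start bin described in this paragraph passed the adjusted threshold. Esrrb, Tet1, Orc6, Mcm4, Olfr410 and Olfr411 were picked for the largest differences of their lists. The start bin of Esrrb, which encodes a nuclear receptor of the pluripotency network, scored 2.65 and 3.05 in auxin, against 2.28 and 2.25 without auxin, and that of Tet1, which encodes a 5-methylcytosine dioxygenase, scored 3.29 and 2.79 in auxin, against 4.04 and 3.39 without auxin. The origin recognition gene Orc6 scored 3.45 and 3.31 in auxin, against 2.81 and 2.75 without auxin, and the helicase subunit gene Mcm4 scored 1.74 and 1.60 in auxin, against 1.32 and 1.01 without auxin. Pou5f1, the gene of the transcription factor OCT4, lay in the chromosome 17 domain of 8850 kb and scored 3.35 and 3.30 in auxin, against 2.69 and 3.26 without auxin. Ctcf itself lay in a long early domain on chromosome 8, with 3.58 and 3.51 in auxin, against 2.94 and 4.00 without auxin, and its groups overlapped. Nanog, Sox2 and Rif1, which encodes a regulator of replication timing, lay in early runs under 2 Mb. The Rif1 start bin scored 1.62 and 1.83 in auxin, against 2.07 and 2.30 without auxin. The bin of Olfr410 and Olfr411, olfactory receptor genes on chromosome 11, scored 1.01 and 1.16 in auxin, against 0.07 and 0.20 without auxin. Both control profiles lay below the score threshold for members. The bin met the rule only through auxin, so its difference is not independent of that choice.

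The authors' deposited tables list 63 regions that changed from early to late and 22 that changed from late to early. Of these, 0 early-to-late regions and 1 late-to-early region had 50% or more of their length in long early domains, counted over all domains. That region spans the end of a domain (at 154000000) and the start of the next (at 154050001), and neither holds 50% of it. It lies on chromosome 2 (153972000 to 154104000) over Bpifa6 and Bpifa2, genes of a family of secreted proteins of the airways and mouth. In the authors' deposited table it scored 1.13 and 1.42 in auxin, against -0.05 and -0.11 without auxin. Membership required a mean over all profiles above 0.5, and late scores in either group lower that mean. The rule itself thus tends to leave out regions that switch between early and late. For that reason the counts cannot show whether long early domains switch less often than other bins.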

How the data were processed

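Replication timing was measured by sequencing BrdU-labelled DNA of early and late S-phase cells, 8 libraries in all. The tools were Bowtie2, SAMtools and bedtools on the mm10 build, per the submitters' processing notes. Their versions, any smoothing and the formula of the score were not found in the labels or headers, and neighbouring windows may share reads. The authors deposited a timing score for each replicate at 316864 windows, 88.2% of them 6 kb apart, with the 4 columns quantile normalized: sorted, they are identical. Columns were matched to group and replicate number by name.

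Here scores were averaged in 50-kb bins and compared with limma 3.58.1 in R 4.3.3 (lmFit and eBayes, no trend, not robust, treatment as single term, residual degrees of freedom 2), two-sided, with Benjamini-Hochberg adjusted p under 0.05 over all 42710 bins with at least 3 windows, and in a separate fit over 1251 runs. The fit over bins was tested on simulated data, with the outcome not reported here, and the fit over runs was not. Values per profile were compared by an exact permutation test. Gene positions are those of RefSeq on GRCm38.p6, which shares its coordinates with mm10; 17274 protein-coding genes with a strand were placed at their start and 4357 at their midpoint. Fall at an edge was taken over 5 bins on each side, with 200 usable edges. SDs are over 2 profiles.

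The members, gene lists and tests were chosen with earlier results of these data known. Named genes follow a rule: up to 3 genes, list members before the longest overlaps, of the 8 longest domains, the 5 with the highest mean and the 5 with the largest difference; genes of the 6 longest runs of called bins in each direction and of the 5 deepest interior dips; 2 members of each list with the largest difference; and Ctcf, Pou5f1, Nanog, Sox2 and Rif1. Of these, the text describes a part. Same-numbered replicates share only a number.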

Additional observations from a re-analysis of the deposited data

How the results depend on the processing

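Counts of called bins depended most on the processing. Against 45 earlier and 11 later member bins, the limma fit called 379 and 112 with a trended, robust variance, 227 and 70 with at least 6 windows per bin, 21 and 7 with members above 1, 81 and 34 with domains of 1 Mb or more, and 0 and 0 without a minimum of windows. Members chosen on the no-auxin profiles alone (7501 bins) held 30 earlier and 10 later bins. That choice leaves the auxin profiles out but uses the control values. Leaving out 1 profile gave 0 to 1 earlier and 0 to 1 later bins, none of them among the 56. With the replicate number as a block the counts were 205 and 59, and 12 domains in place of 11; deviations of same-numbered profiles correlated at r = 0.04 over all kept bins, so the numbers were not taken to pair the profiles. All 56 called bins were also called with the block and with the trended, robust variance. Of domains, 30 were called with the trended, robust variance, 27 with only runs of 2 Mb or more in the fit, and 2 to 10 without 1 profile; the 11 called domains were among those of the first 2 fits. Fewer profiles leave fewer degrees of freedom; for the other changes the cause was not tested. The difference of class medians (0.07) ran from 0.07 to 0.08 without 1 profile, was 0.04 with domains of 1 Mb or more and 0.07 with at least 6 windows. The step between bins (-0.05) ran from -0.07 to -0.02 without 1 profile, the fall at the edge (-0.28) from -0.34 to -0.22, the crossing of 0.5 (14.8 kb) from 10.7 to 18.9 kb, and the lowest interior bins (0.35) from 0.30 to 0.41; none changed sign under any setting run. Chosen on 1 replicate of both groups and measured in the other, an alternative added after seeing the data, the differences were 0.07 and 0.07 for the median, -0.03 and -0.07 for the step, -0.31 and -0.29 for the fall, and -0.107 and -0.0649 for the median of early runs under 2 Mb, which was -0.09 with all profiles and ran from -0.10 to -0.07 without 1 profile. Gene density was 18.1 per Mb with domains of 1 Mb or more. Of the 31 named domains and runs of called bins, 1 changed sign when a profile was left out, the chromosome 11 domain at 114400001, which ran from -0.0219 without auxin replicate 2 to 0.102 without auxin replicate 1. Depth is unknown and sets no limit that can be stated here.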
